A study of Mus musculus with 42 samples.

Results

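The *Mtg16*-/- baseline colon was described by comparing its distal with its proximal crypts. The 6 libraries concerned, of 42 in the series, were chosen by their labels alone and comprised 4 distal and 2 proximal libraries. All came from untreated mice with a germline deletion of *Mtg16*, which is listed by its official symbol *Cbfa2t3* (myeloid translocation gene 16), on a C57BL/6J background. Mice were at least 8 weeks old and were bred from heterozygous parents, and their WT littermates gave the same layout of 4 distal and 2 proximal libraries, which served here as the reference. Proximal colon was taken as the 5 cm from the cecum on, and distal colon as the 5 cm that end at the anus. Crypts were released from each segment by chelation and shaking, so each library measured bulk RNA of a crypt preparation, with any cells that came along. Distal replicates 1 and 2 of each genotype had library names that began with 5094 and all the others names that began with 4149, and these 2 numbers are called requests here. The labels did not name the mouse behind a library, so it was not known whether a proximal and a distal library shared a mouse, and p-values measured the spread between these libraries only. In request 4149, each genotype had consecutive names for proximal replicate 1 with distal replicate 3, and for proximal replicate 2 with distal replicate 4. No label ties this order to a mouse, and no fit was paired by it. Because the germline deletion was present in every cell, including immune and stromal cells, the comparison was not limited to an epithelial loss.

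The 6 *Mtg16*-/- libraries held 39461131 to 56317273 reads assigned to genes. Levels below are rescaled counts, that is, the authors' normalized counts per gene brought to 1 common scale by the trimmed mean of M values (TMM) over the 12 baseline libraries, so that levels of 1 gene can be compared between libraries but not levels of different genes. A pair of values set against 3 values stands for proximal replicates 1 and 2 against distal replicates 1, 3 and 4, in that order. Differences are given as log2 of distal over proximal, from limma's trend method on log2 (rescaled count + 1), with Benjamini-Hochberg adjustment over all genes tested and a threshold of 0.05.

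As background, the colon epithelium keeps a record of its position along the gut. Homeobox genes of the *Hox* clusters are switched on in nested domains from front to back in the embryo and stay regional in the adult, and the caudal factors CDX1 and CDX2 give the epithelium its intestinal identity. The proximal colon ferments fiber, takes up short-chain fatty acids and still carries some traits of the ileum. The distal colon dries the stool, with sodium channels and proton pumps in its surface cells, and its enteroendocrine cells of the L type release peptide YY and insulin-like peptide 5. MTG16 is a corepressor that brings histone deacetylases to DNA-bound factors, among them the E proteins, which bind the E box motif and drive secretory cell differentiation together with ATOH1 or NEUROG3.

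Before any comparison, 1 library went against its label. *Hoxb13*, the most posterior gene of its cluster (ENSMUSG00000049604.3, GRCm38 chromosome 11 from 96194316 to 96197447), had 33.3 and 15.7 rescaled counts in the proximal libraries and 19900.2, 17862 and 23804 in distal replicates 1, 3 and 4, but 248 in the library labelled distal replicate 2. *Hoxd13* (ENSMUSG00000001819.4, chromosome 2 from 74668310 to 74671599) had 4255, 6006 and 5841 in the same 3 distal libraries, was at 0 in the library labelled distal replicate 2 and was not listed in the proximal table, which omits genes with at most 1 read. The colonic proton pump gene *Atp12a* (chromosome 14 from 56365068 to 56388550) had 65601, 53612 and 51320.4 in the 3 distal libraries, 128 in the library labelled distal replicate 2 and 29.0 and 37.2 proximally. Genes of the opposite pattern behaved likewise, since the antimicrobial lectin gene *Reg3b* (chromosome 6 from 78370657 to 78373466) had 158934 in that library against 873, 70.9 and 59.8 in the other distal and 537610.3 and 296416 in the proximal libraries. Over 14008 genes, the log2 levels of the library labelled distal replicate 2 had a Pearson correlation of 0.983 with the mean of the proximal libraries and of 0.922 with the mean of the other distal ones, whereas distal replicates 1, 3 and 4 had 0.910 to 0.916 with the proximal mean and 0.984 to 0.989 with the mean of the others of these 3. It was also the only library of the 6 from a male, with 2067 rescaled counts of the Y-linked *Eif2s3y* and 7.41 of *Xist*. The counts below are therefore given for all 6 libraries and without that library, and its label was left as deposited.

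The position of each library between the WT segments was read from 513 genes that were called in WT with a log2 difference of at least 3, with 0 set at the WT proximal and 1 at the WT distal mean. The median position was 0.039 and 0.037 in the proximal *Mtg16*-/- libraries and 0.971, 0.980 and 1.01 in distal replicates 1, 3 and 4. It was 0.090 in the library labelled distal replicate 2, next to the proximal libraries. The 211 genes higher in WT distal colon gave 0.988, 0.980 and 1.03 for the 3 distal libraries, and the 302 genes higher in WT proximal colon gave 0.941, 0.987 and 0.963. *Mtg16*-/- segments thus lay at the positions of the WT segments on these genes. The genes were chosen on the WT libraries, so only the *Mtg16*-/- positions carry information.

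**Figure D1:**
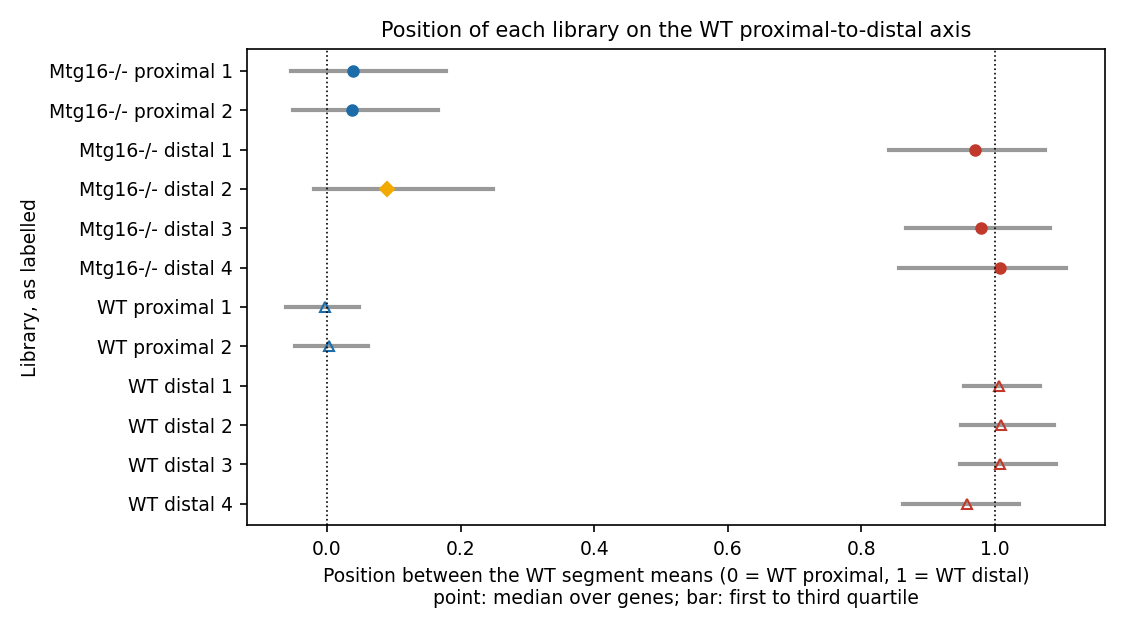
Position of each of the 12 baseline libraries on the axis from WT proximal (0) to WT distal (1) colon, as the median (point) and interquartile range (bar) over 513 genes. Filled symbols are *Mtg16*-/- and open ones WT libraries, and the library labelled *Mtg16*-/- distal 2 (diamond) sits at 0.090, while the other 3 distal *Mtg16*-/- libraries sit between 0.971 and 1.01.

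The targeted gene checked the genotype labels. *Cbfa2t3* (ENSMUSG00000006362.16, chromosome 8 from 122625141 to 122699109) had 606 and 1037 rescaled counts in the proximal *Mtg16*-/- libraries against 1576 and 3118 in the proximal WT libraries. Distally it had 707, 435 and 699.6 in replicates 1, 3 and 4 and 1107 in the library labelled replicate 2, against 1829, 1691, 1051 and 1571 in WT. The library labelled distal replicate 2 had the highest *Mtg16*-/- value, and the other 5 lay below the lowest of the 6 WT values. Counts were summed over the gene, so reads from exons outside the deleted part are included. Between the *Mtg16*-/- segments the log2 difference was -0.18 (SE 0.39, adjusted p = 0.845, limma) in all 6 libraries and -0.40 (SE 0.30, adjusted p = 0.442) without the library labelled distal replicate 2. Exact two-sided permutation tests gave p = 0.8 over the 15 groupings of the 6 libraries, which cannot give less than 0.0667, and p = 0.6 over the 10 groupings of 5, which cannot give less than 0.1. The segments of the mutant colon overlapped for the targeted transcript.

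In all 6 libraries, 0 of 14008 genes (0%) passed the test between distal and proximal *Mtg16*-/- colon. In that fit 1991 genes had an unadjusted p under 0.05 and the smallest adjusted p was 0.286 with limma, edgeR on recovered whole reads also called 0 (1827 unadjusted), and DESeq2 called 527, 389 higher and 138 lower distally. Without the library labelled distal replicate 2, limma called 2773 of 14028 genes (19.8%), of which 1288 (9.18%) were higher and 1485 (10.6%) lower in distal colon (1138 and 1759 with the deposited values left unscaled). The 2 distal libraries of request 4149, compared with the 2 proximal ones of the same request, gave 791 (5.62%) higher and 990 (7.04%) lower of 14065 genes. This is the same fit as leaving out distal replicate 1 as well. Leaving out a further library besides the one labelled distal replicate 2 gave 1321 genes without proximal replicate 1, 1447 without proximal replicate 2, 1781 without distal replicate 1, 2090 without distal replicate 4 and 3279 without distal replicate 3. The genes and groups below are those of the 5 libraries, unless stated otherwise. That choice followed a look at values of segment genes such as *Hoxb13* and *Atp12a*. The p-values from the 5 libraries are therefore not error rates set in advance. Each count of members called is to be read against the shares over all genes given here. With limma, none of the genes below passed in the fit of all 6, where the smallest adjusted p among the named genes was 0.352 (limma). Of the 149 named genes tested in both fits, 147 kept the sign of their difference. That was largely fixed in advance, because the fits share 5 libraries. DESeq2 on all 6 called 48 of the 149, 47 of which limma called without that library, and gave no adjusted p for 38. For genes described below, the log2 differences in all 6 libraries were 8.51 for *Atp12a*, -2.22 for *Cdx2*, -4.39 for *Car1*, 4.57 for *Insl5*, 1.20 for *Neurog3* and -1.54 for *Pou2f3*, with adjusted p of 0.352 to 0.373 (limma).

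Markers of other cells moved with the segment, and their part in the results below was not tested. Of 10 T cell markers tested, 0 were higher and 9 lower in distal colon, and their summed level was 7742 and 4636 in the proximal, 1558, 1538 and 1096 in the other 3 distal and 5648 in the library labelled distal replicate 2. All 10 were above 0 in at least 1 library, and the T cell kinase gene *Lck* had 797 and 730.2 proximally and 234, 227 and 224 distally. Of 6 plasma cell markers, 4 were lower distally, with summed levels of 33089.9 and 40204 against 27923, 23669.5 and 28218, and 4 of 5 B cell markers were lower, with 230.1 and 224 against 84.9, 57.3 and 73.1. Smooth muscle genes set 1 library apart, with a sum of 4251 in proximal replicate 1 against 48.7 to 230.3 in the other 5, and 0 of 8 were called, but 8 were lower without proximal replicate 2. The T cell count fell to 4 without proximal replicate 1, the plasma cell count to 2 without proximal replicate 2 or distal replicate 1, and the B cell count to 1 or 2 without any library but distal replicate 3. The summed level of 12 epithelial markers was 1165843 and 1240136 proximally and 1292977, 1239546 and 1230299 in the 3 distal libraries, with 2 of 12 called (*Cdx2* and *Phgr1*), both lower. Of the myeloid markers, 2 of 11 were higher and 2 lower, of the fibroblast markers 1 of 9 was lower, and of the endothelial markers 1 of 5 was higher. With a further library left out, the myeloid counts were 0 and 1 (without proximal replicate 2 or distal replicate 1) to 3 and 1 (without proximal replicate 1), 3 fibroblast markers were lower without proximal replicate 2, and 2 endothelial markers were higher without distal replicate 3 and 0 without any of the others. Of 10 ileal and Paneth cell genes, 5 of which also belong to other groups below, 8 were tested, of which 6 were lower distally and 2 higher (*Fabp6* and *Lyz1*, neither of which passed within request 4149), with sums of 18764 and 22887 against 3390.2, 3383 and 2258. Squamous keratinocyte genes of the anal margin summed to 190.3 and 129 proximally and 250.1, 295 and 179 distally, and *Krt5* was at 0 in all 6 libraries.

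*Hox* genes divided the segments. Of 26 tested, 10 were higher and 11 lower in distal colon, against backgrounds of 9.18% and 10.6%, and in request 4149 alone 8 were higher and 11 lower. Of 39 listed genes, 35 were in the tables, *Hoxd12* and *Hoxd13* were in the distal table alone, and 7 more (*Hoxb1*, *Hoxd1* and genes of the *Hoxc* cluster) had means under 10 and were not tested. Genes in the middle of the *Hoxb* cluster were proximal. *Hoxb6* had 2998 and 2791 rescaled counts in the proximal libraries and 48.4, 28.2 and 42.4 in distal replicates 1, 3 and 4, and the library labelled distal replicate 2 had 2916, a proximal level. *Hoxb8* followed with 1622 and 2013 proximally and 20.1, 2.92 and 16.6 distally. The log2 differences of *Hoxb2* to *Hoxb8* ran from -7.32 to -6.19, without overlap of the segments. *Hoxb9*, the next gene of the cluster, was lower distally by a smaller amount, with 3848 and 4279 against 1437, 1558 and 1492 (log2 difference -1.44, SE 0.11). *Hoxb13*, the last gene, turned the other way with a log2 difference of 9.73 (SE 0.30, adjusted p = 1.34e-05, limma), which was 8.15 with an adjusted p of 0.352 in all 6 libraries.

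The *Hoxd* cluster was split in the same manner. *Hoxd4* had 283 and 294 proximally and 1.18, 1.94 and 1.66 distally, and *Hoxd8* had 84.9 and 217 against 13.0, 19.4 and 18.3. *Hoxd10* had 9.68 and 1.96 proximally and 259.5, 377 and 308 distally, *Hoxd11* had 4.30 and 0 against 505, 673 and 626, and *Hoxd9* was higher distally too. *Hoxd12*, like *Hoxd13*, was listed in the distal table alone, with 247, 271 and 478 in the 3 distal libraries and 0 in the library labelled distal replicate 2. In the *Hoxa* cluster the steps were smaller and no gene was lower distally. *Hoxa13* had 132 and 276 proximally and 2869, 2625 and 3294 distally, a log2 difference of 3.92 (SE 0.30), followed by *Hoxa9* with 2.40, *Hoxa6* with 2.21, *Hoxa10* with 2.16 and *Hoxa5* with 1.29. *Hoxa7* had 1225 and 1446 against 1131, 1253 and 1311 and did not pass the test (-0.11, SE 0.14), and neither did *Hoxa2*, *Hoxa3*, *Hoxa4* and *Hoxa11*. The library labelled distal replicate 2 departed from the proximal pair in *Hoxa* genes, with 896 of *Hoxa13*, 705 of *Hoxa9* and 760.1 of *Hoxa10*, above both proximal and below the 3 distal values. Its values of *Hoxb13*, *Atp12a*, *Insl5* and *Nxpe2* lay between the segments too. Antisense transcripts lie within the *Hox* clusters, and whether the counting used strand was not given in the sources used here.

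**Figure D2:**
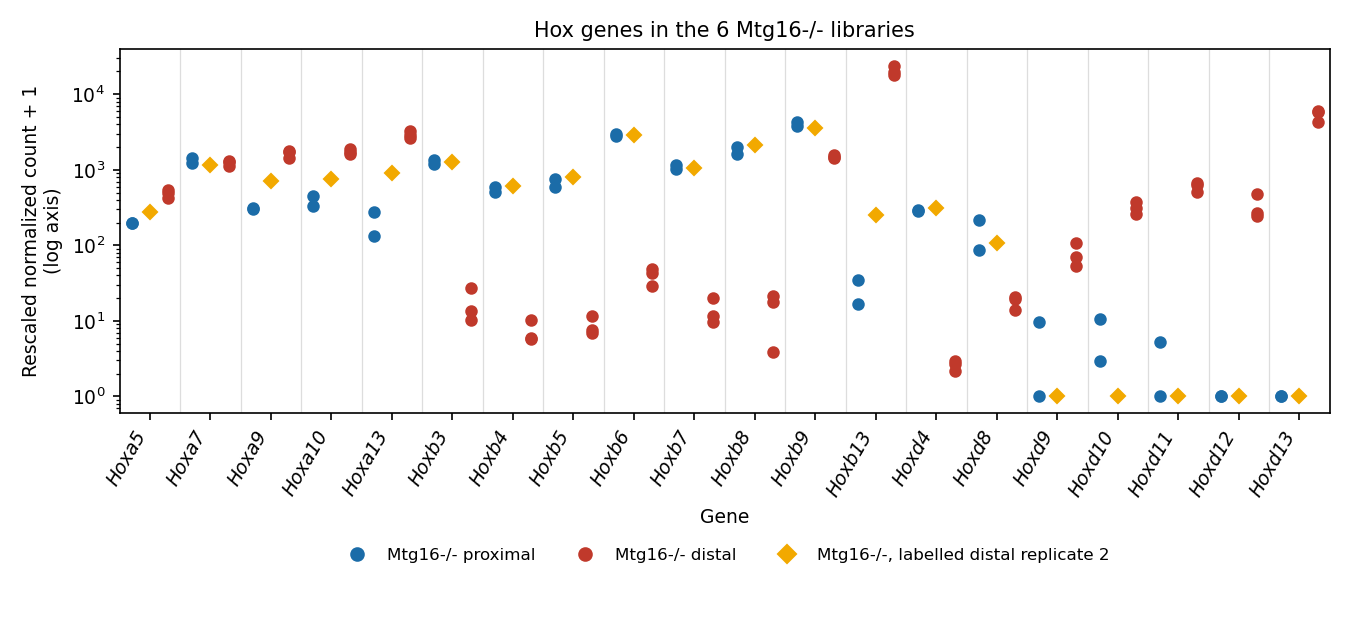
Rescaled normalized count plus 1 of 20 *Hox* genes on a log axis, 1 point per *Mtg16*-/- library: proximal (blue), distal replicates 1, 3 and 4 (red) and the library labelled distal replicate 2 (diamond). *Hoxb3* to *Hoxb8* are at 512 or more in the proximal libraries and at 48.4 or less in the 3 distal ones, and *Hoxb13* and *Hoxd13* have the reverse order. A value of 0 is drawn at 1.

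Transcription factors of intestinal identity were mostly proximal where they differed. Of 25 tested, 1 was higher and 10 were lower in distal colon (1 and 8 within request 4149, and 6 lower without proximal replicate 1). *Cdx2* (ENSMUSG00000029646.3, chromosome 5 from 147300805 to 147307270) had 18620.0 and 23196 rescaled counts proximally and 3038, 2635 and 2319 distally, a log2 difference of -2.97 (SE 0.15, adjusted p = 8.09e-05, limma). *Cdx1*, by contrast, had 18991 and 23024 against 21542, 19549 and 22739, a log2 difference of 0.02 with an SE of 0.13. The homeobox gene *Isx*, which restrains the uptake of vitamin A precursors, had 7851 and 8192 proximally and 48.4, 148 and 65.6 distally. *Tbx3*, a T-box repressor, had 1385 and 2200.5 against 10.6, 8.75 and 2.49, and the library labelled distal replicate 2 had 1968. *Gata4*, a factor of the upper intestine, was low in both segments, with 24.7 and 25.5 against 4.72, 1.94 and 0.831, and *Gata5* was lower distally as well. Among nuclear receptors, *Pparg* had 6322 and 8152 against 2025, 2020.5 and 2046, and the bile acid receptor gene *Nr1h4* had 8710.1 and 8556 against 3165, 3199 and 3052. *Foxa2*, a forkhead factor of endoderm, was the gene of the list higher distally, with 561 and 564 against 2074, 1710.5 and 2531 (log2 difference 1.88, SE 0.18). *Hnf4a* and *Gata6* did not pass the test, with log2 differences of 0.01 (SE 0.17) and 0.26 (SE 0.14).

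Electrolyte transport genes were higher in distal colon in 10 cases of 30 tested and lower in 1 (7 and 0 within request 4149). Leaving out proximal replicate 2 left 6 higher and 0 lower, and 4 were lower without distal replicate 3. *Atp12a*, the alpha subunit of the colonic proton-potassium pump, had the largest difference of the group at 10.70 (SE 0.16, adjusted p = 1.22e-06, limma). The 3 subunits of the epithelial sodium channel were all higher distally. *Scnn1a* had 1884 and 2476 proximally and 9219, 7897 and 8653 distally, *Scnn1b* had 191 and 113 against 427, 357 and 391, and *Scnn1g* had 6.45 and 16.6 against 612, 148 and 299. Their log2 differences were 1.99, 1.41 and 4.72, and *Scnn1b* had an adjusted p of 0.0592 (limma) within request 4149. The anion exchanger gene *Slc26a3* had 12911 and 17484 against 54792, 37796 and 47079, and the bicarbonate channel gene *Best2*, a gene of goblet cells, had 35.5 and 58.7 against 1851, 1124 and 2316. The phosphate carrier gene *Slc34a2* had 306 and 324 against 3041, 1921 and 3249. *Kcnq1*, a basolateral potassium channel of chloride secretion, was the 1 member lower distally, with 4915 and 6685 against 3411, 2589 and 4006 (log2 difference -0.80, SE 0.21). The chloride channel gene *Cftr* had 9802 and 11971 against 7593, 4911 and 8179 and did not pass the test (adjusted p = 0.0847, limma).

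Carbonic anhydrase, aquaporin and guanylin genes divided between the segments, with 3 higher and 10 lower in distal colon of 19 tested. *Car1*, a cytosolic carbonic anhydrase of colonocytes, had 579257 and 560685 proximally and 14142, 8122 and 10926 distally, a log2 difference of -5.72 (SE 0.22, adjusted p = 3.13e-05, limma). *Car12*, a membrane enzyme, had 6832 and 8219.5 against 361, 431 and 335, and *Car8*, a catalytically inactive member of the family, had 4182 and 5636 against 415, 615 and 442. The luminal enzyme gene *Car4* was higher distally, with 13805 and 14331 against 34861, 37706 and 30899, as was the water channel gene *Aqp8*, with 8009 and 7489 against 28583, 16719.8 and 20366. *Guca2a*, which encodes guanylin, a peptide that stimulates fluid secretion, had 21022 and 29806 against 6816, 3825 and 6325, and its receptor gene *Gucy2c* had 20751 and 24286 against 14973, 11941 and 16457 (log2 differences -2.19 and -0.65). Within request 4149 the receptor did not pass (adjusted p = 0.0999, limma), and 3 genes of the list were higher and 6 lower. Those lower were 5 without proximal replicate 1, 4 without proximal replicate 2 and 6 without distal replicate 1.

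Antimicrobial and oxidase genes were higher in distal colon in 4 and lower in 11 of 25 tested. *Reg3b*, whose product binds bacterial surfaces, had the largest proximal excess of the whole table among well expressed genes, at -11.32 (SE 1.10, adjusted p = 0.000765, limma) and at -8.82 (adjusted p = 0.352) in all 6 libraries. Its neighbour *Reg3g* had 125801 and 89269 proximally and 242, 91.4 and 52.3 distally. Reads of these similar genes could be shared between them. *Retnlb*, a goblet cell product active against worms and bacteria, had 37597 and 39599 against 1132, 1298 and 3449. The serum amyloid genes went in opposite directions, since *Saa3* had 718 and 594 against 24.8, 36.9 and 32.4, whereas *Saa1* had 18321 and 17070.5 against 36863, 47148 and 46894. *Noxa1*, the activator of the NADPH oxidase NOX1, had 6053 and 5485 against 2342, 2676 and 2721, and the scavenger receptor gene *Dmbt1* had 882653 and 924752 against 509421, 449452 and 506929.9. *Defb45*, a beta-defensin gene, was a distal member, with 0 and 2.94 against 72.0, 86.5 and 199. Within request 4149, 5 were higher and 8 lower, and without proximal replicate 1, 6 were lower.

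Bile acid and lipid genes were higher distally in 5 and lower in 9 of 21 tested (3 and 9 within request 4149), with 2 higher when either proximal library was left out and 3 without distal replicate 1. *Slc51a* (chromosome 16 from 32474504 to 32487879), a subunit of the basolateral bile acid exporter, had 3629 and 5528 proximally and 11.8, 2.92 and 4.15 in the 3 distal libraries, and the library labelled distal replicate 2 had 4617. Its partner *Slc51b* differed less, with 4345 and 4423 against 1445, 1850.4 and 985, so the log2 differences of the 2 subunits were -9.46 and -1.67. The apical bile acid importer gene *Slc10a2* had 4219 and 5809.6 against 865, 208.9 and 388, and the fatty acid binding protein gene *Fabp2* had 12101 and 14074 against 1213, 864 and 972. The sterol exporter genes *Abcg5* and *Abcg8*, which encode both parts of 1 transporter, were higher distally. *Abcg5* had 44.1 and 15.7 against 559, 768 and 534, and *Abcg8* had 30.1 and 17.6 against 189.9, 249 and 214.

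Genes for the handling of foreign compounds, carboxylesterases included, were the longest list, with 50 genes, and had the most proximal members by number. Of 43 tested, 8 were higher and 25 lower in distal colon, a smaller share lower than the 9 of 10 T cell markers. The median log2 difference was -0.79 against 0.02 over all genes. Within request 4149 the counts were 8 and 26. *Cyp2c65*, a cytochrome P450 gene, had 19331 and 22092 proximally and 132, 36.0 and 67.3 distally, and *Cyp2c55* had 81871 and 88417 against 1747, 412 and 1232. *Cyp2c68*, of the same subfamily, had the reverse order, with 113 and 131 against 4959, 2165 and 4661. *Ugt2b5*, a glucuronosyltransferase gene, had 3467 and 3912 against 13.0, 3.89 and 0.831. Retinoid enzymes also parted, because *Aldh1a1*, which makes retinoic acid, had 16315 and 16380.4 against 620.5, 526 and 497, whereas the alcohol dehydrogenase gene *Adh1* had 4286 and 7388 against 94372, 47444 and 80065. Among carboxylesterases, *Ces1g* was proximal with 4362 and 6309.8 against 486, 569.5 and 270.0, *Ces2g* was distal with 206 and 269 against 1818, 2245 and 1821, and *Ces2f* was distal with 16.1 and 22.5 against 508, 2183 and 508. These are gene families with similar copies, so a share of their reads could have been assigned to a neighbour.

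Glycosylation enzymes were balanced, with 12 higher and 11 lower of 39 tested (10 and 10 of 38 within request 4149). *B3gnt7*, which extends keratan-type chains, had 1689 and 667 proximally and 47474, 31734 and 48919 distally, a log2 difference of 5.30 (SE 0.39). *B3gnt5*, of lacto-series glycolipids, had 804 and 697 against 4806, 7127 and 6894. The sialyltransferase genes parted, since *St3gal6* had 655 and 1044 against 8818, 8849 and 10397, and *St3gal1*, which caps core O-glycans, had 2737 and 1993 against 76.7, 35.0 and 73.1. *Fut4*, a fucosyltransferase gene, was higher distally, with 2199 and 3092 against 12892, 9069 and 11524. *B4galnt1*, of complex gangliosides, and *B4galnt2*, of the Sd(a) antigen, were proximal, the former with 10045 and 14982 against 565, 259 and 319.9 and the latter with 42209.6 and 42036 against 10171, 9077 and 10915. *Papss2*, which makes the sulfate donor, had 35184 and 42256 against 11421, 10099.5 and 12518.

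Secretory cell genes came next, and in bulk RNA fewer cells of a type and less RNA per cell cannot be told apart. Of 25 goblet cell genes, the distal side was higher in 2 and lower in 4, and 19 were not called, which is near the shares of 9.18% and 10.6% over all genes. *Atoh1*, the master factor of secretory cells, had 2325 and 2356 proximally and 2106, 1775 and 2033 distally and did not pass the test (-0.25, SE 0.12), nor did the trefoil peptide gene *Tff3*, with 66585 and 57710.1 against 51540.1, 49045 and 57160.5. *Spdef*, a factor of goblet cell maturation, had 4263 and 5718 against 3027, 1925 and 2513 (log2 difference -1.01, SE 0.22, adjusted p = 0.0183, limma). *Itln1*, a lectin gene, had 256 and 547 against 21.2, 30.1 and 33.2, and *Reg4*, of goblet and other deep crypt secretory cells, was higher distally, with 5321 and 5930.0 against 21937, 12181 and 23823. *Clca1*, a secreted mucus protein gene, had 48218 and 66652 against 93956, 83139 and 134037 with an adjusted p of 0.0515 (limma). Within request 4149, 1 was higher and 4 lower. Leaving out a further library gave 0 (without proximal replicate 2) to 6 (without distal replicate 3) higher, with 1 without proximal or distal replicate 1, and 2 (without either proximal library) to 7 (without distal replicate 4) lower. Of 7 transmembrane mucin genes, 3 were lower distally, namely *Muc16* with 443 and 500.2 against 13.0, 0.972 and 9.14, *Muc3a* with 4987 and 5158 against 1348, 883 and 1168, and *Muc4* with 27439 and 21862 against 11263, 8179 and 11005. None was higher, save 1 without distal replicate 1 and 2 without distal replicate 3.

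Transcription factors of enteroendocrine cells were higher in distal *Mtg16*-/- colon in 9 of 16 cases and lower in 0, against a background of 9.18% higher. *Neurog3*, which starts the lineage, had 118 and 220.2 rescaled counts proximally and 605, 323 and 543 distally, a log2 difference of 1.55 (SE 0.36, adjusted p = 0.0261, limma), with an adjusted p of 0.104 within request 4149. *Neurod1*, which follows it, had 215 and 247 against 451, 424 and 439 (0.92, SE 0.16). *Insm1*, a zinc finger factor of the lineage, had 296 and 587 against 1159.6, 758 and 1133, and *Nkx2-2* had 87.1 and 130.2 against 363, 260.5 and 315. *Isl1*, a LIM homeobox factor, had 53.8 and 67.5 against 186, 156 and 174. *Myt1*, *Pax6* and *Rfx6* had log2 differences of 1.40, 1.15 and 0.99. The segments did not overlap for any of the 9, but these were picked by passing that test, so the lack of overlap is not further support. The library labelled distal replicate 2 had 179 of *Neurog3*, 272 of *Neurod1* and 148 of *Nkx2-2*, below the 3 other distal libraries. This count rested on few libraries, because 3 of the 9 were called within request 4149, and leaving out proximal replicate 1 as well left 1, proximal replicate 2 left 7, distal replicate 1 left 3 and distal replicate 4 left 4.

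Enteroendocrine hormone and secretory genes divided, with 6 higher and 6 lower of 20 tested (5 and 6 within request 4149). The distal members included *Insl5* and *Pyy*, which encode peptides of L cells. *Insl5* (chromosome 4 from 103017872 to 103026842) had 111 and 274 proximally and 8303, 7545 and 8759.7 distally, a log2 difference of 5.55 (SE 0.34, adjusted p = 0.000145, limma), and the library labelled distal replicate 2 had 549. *Pyy* had 1671 and 2220.1 against 11098, 10392 and 13069. The granule genes *Scg2*, with 23.7 and 51.9 against 769, 604 and 800.1, and *Cpe*, with 732 and 956 against 2337, 1986 and 2764, were distal too. *Ddc*, an enzyme of serotonin synthesis that absorptive cells also express, had 1797 and 2003 against 7638, 5766 and 6302. Proximal hormones were *Nts* (neurotensin), with 1204 and 1667 against 9.44, 2.92 and 0, *Sct* (secretin), with 1336 and 1445 against 288, 324 and 332, *Sst* (somatostatin), with 913 and 957 against 146, 134 and 199, and *Cck* (cholecystokinin), with 181 and 264 against 57.8, 62.2 and 41.5. *Gcg*, which encodes the glucagon-like peptides, and *Chga*, a general granule gene, did not pass the test, with log2 differences of -0.17 (SE 0.15) and -0.09 (SE 0.27). Of 6 tested markers of enteric neurons and glia, 3 were higher distally (1 when any library but distal replicate 3 was left out as well), and their summed level was 409 and 567 proximally and 617, 554 and 708 in the 3 distal libraries. Enteroendocrine cells express some of these genes as well, and the part of neurons in the result was not tested.

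**Figure D3:**
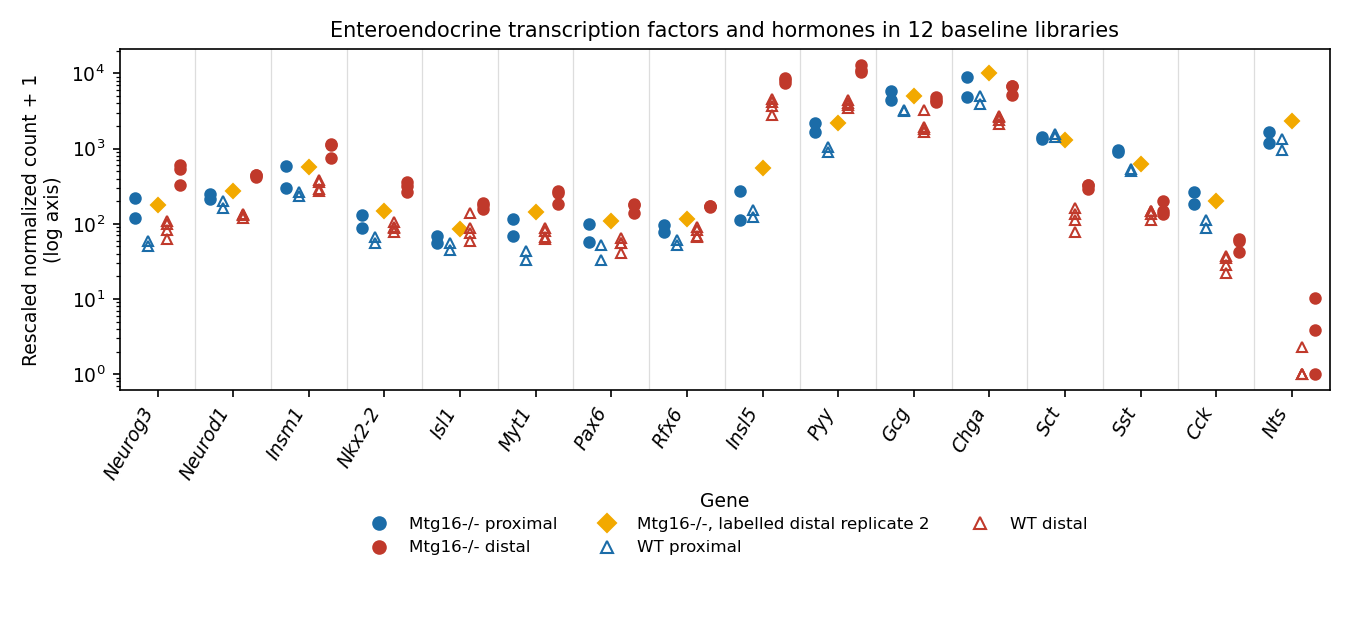
Rescaled normalized count plus 1 of 8 enteroendocrine transcription factors and 8 hormone or granule genes on a log axis in the 12 baseline libraries, with filled symbols for *Mtg16*-/-, open ones for WT, blue for proximal, red for distal and a diamond for the library labelled *Mtg16*-/- distal replicate 2. The 3 distal *Mtg16*-/- libraries have the highest *Neurog3* values, at 605, 323 and 543, and the diamond stands with the proximal *Mtg16*-/- libraries for *Insl5*, *Pyy* and *Nts*. A value of 0 is drawn at 1.

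Tuft cell genes were lower in distal colon in 8 of 17 cases and higher in 0, with a median log2 difference of -1.38, against 10.6% lower and 9.18% higher over all genes. *Pou2f3*, the factor that specifies tuft cells, had 51.6 and 117 proximally and 14.2, 14.6 and 32.4 distally (-1.99, SE 0.53, adjusted p = 0.0411, limma). *Dclk1*, a kinase gene that marks tuft cells, had 519 and 884 against 203, 232 and 482 and did not pass (adjusted p = 0.0801, limma). The count fell to 1 within request 4149 (that is, without distal replicate 1 as well), where 7.04% of all genes were lower, to 4 without proximal replicate 1 and to 0 without proximal replicate 2, which had the higher *Pou2f3* and *Dclk1* values of the proximal pair.

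Stem cell and Wnt target genes were higher distally in 3 and lower in 8 of 23 tested (1 and 6 within request 4149). Without either proximal library 0 were higher and 5 lower, and without distal replicate 4, 1 was higher. The crypt base stem cell gene *Lgr5* had 281 and 424 against 398, 236 and 464 and *Ascl2* had 281 and 339.7 against 245, 284 and 256, and neither passed. *Tnfrsf19*, a Wnt-induced receptor gene, had 165 and 151 against 5.90, 0.972 and 0, and the hyaluronan receptor gene *Cd44* had 4389 and 5161 against 961, 1144 and 953. *Lrig1*, a feedback inhibitor of growth factor receptors, had 5005 and 5469.9 against 9192, 6585 and 9135, and the cyclin gene *Ccnd2* had 10541 and 10149 against 22062, 20012 and 15406, both higher distally. Of 26 proliferation genes 0 passed in either direction with limma, although 1 was higher without proximal replicate 1 and, without distal replicate 3, 1 was higher and 6 were lower, and *Mki67* had 18556 and 12235 against 16018, 19913 and 17605 (0.24, SE 0.19). Claudins, which seal or open the space between cells, were higher in 3 and lower in 3 of 10 cases. The barrier claudin gene *Cldn8* had 1217 and 764 against 6233, 14855 and 7045, *Cldn14* had 72.0 and 64.6 against 552, 434 and 659, and the pore-forming *Cldn15* had 8278 and 10709 against 2416, 1699.8 and 2336.

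Partners of MTG16 came next. Of 14 genes of the MTG family, its corepressors, the E proteins and the Id proteins, which sequester E proteins, 1 was higher and 1 lower, in all 5 libraries and within request 4149, with 0 higher without proximal replicate 1 and 0 lower without proximal replicate 2. The shares over all genes were 9.18% higher and 10.6% lower. *Id1* had 9518 and 10593 proximally and 15844, 16444 and 14469 distally (0.63, SE 0.11), and *Id3* had 4823 and 5821 against 3019.8, 3292 and 2746 (-0.82, SE 0.13). For *Id1*, the library labelled distal replicate 2 had 6647, below both segments. The E protein genes *Tcf3* and *Tcf12* had log2 differences of 0.08 (SE 0.11) and -0.30 (SE 0.11) and the family member *Cbfa2t2* of 0.08 (SE 0.12), and none of the 3 passed.

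A rule on size named the largest differences, taking per direction the 12 called genes with the largest change, a mean of at least 500 in the higher segment and no overlap. It named 0 genes in all 6 libraries, so it was applied without the library labelled distal replicate 2, a choice made after the values were seen. Besides *Atp12a*, *Hoxb13* and *Hoxd11*, the distal genes were *Trpv6*, *Casp14*, *Tgm3*, *St8sia5*, *Robo2*, *Nxpe4*, *Trf*, *Ephb6* and *AI854703*. *Trpv6*, the apical calcium channel of the gut, was at 0 in both proximal libraries and had 1098, 2792 and 1204 distally, and *Casp14*, a caspase of keratinizing epithelia, had 0 and 0.979 against 1569, 1439 and 1854. *Tgm3*, a transglutaminase gene, had 40.9 and 59.7 against 53696, 35248 and 66399.6, a log2 difference of 9.96 (SE 0.28), and *Trf*, which encodes the iron carrier transferrin, had 9.68 and 20.6 against 3607, 3479 and 6842. *Robo2*, a receptor of SLIT guidance cues, had 0 and 19.6 against 2423, 2439 and 4057, and the sialyltransferase gene *St8sia5* had 0 and 1.96 against 1202, 1653 and 2193. Besides *Reg3b*, *Reg3g*, *Ugt2b5*, *Slc51a*, *Nts* and *Cyp2c65*, the proximal genes included *Osr2*, *Abca12*, *Pcsk5*, *Mal* and *ccdc198*. *Osr2*, an odd-skipped zinc finger factor, had 6758 and 6647 proximally and 23.6, 0 and 0 distally. The lipid transporter gene *Abca12* had 11077 and 9227 against 22.4, 1.94 and 9.14, and *Mal*, a protein of apical membrane traffic, had 17378 and 15322 against 40.1, 26.2 and 26.6. *Pcsk5*, a proprotein convertase gene, had 3003 and 3429.9 against 17.7, 0.972 and 4.15. The library labelled distal replicate 2 had 4648 of *Osr2*, 9858 of *Abca12*, 15950.1 of *Mal* and 4.23 of *Trpv6*, in each case near the proximal values and far from those of the other distal libraries. Fold changes of genes at or near 0 in 1 segment depend on the pseudocount of 1.

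Of 18613 genes in either table, 17039 were listed in both, 1156 in the distal one alone and 418 in the proximal one alone, where at most 1 read of a gene in the whole other table kept it from being listed. Only 33 of the 1156 and 1 of the 418 had a mean of at least 10 in the *Mtg16*-/- libraries of their table. The 5 highest of the distal table were *Hoxd13*, *2310079G19Rik*, with 498, 1188 and 313 in the 3 distal libraries and 0 in the library labelled replicate 2, *Mettl7a2*, with 514, 228 and 391 and 5.29, and the Y-linked *Eif2s3y* and *Ddx3y*, which had reads in the male library and in no other distal *Mtg16*-/- library. The 5 highest of the proximal table (*Ctxn3*, *Tmsb15b2*, *Cacng7*, *Hspb2* and *Colec10*) had means of 10.1 or less.

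In the WT littermates, under the same layout, the test called 1791 genes (12.9%) as higher and 1755 (12.7%) as lower, out of 13869, and 1489 and 2196 with the deposited values left unscaled. The 2 genotypes share no library. Of 13727 genes tested in both, 2709 were called in *Mtg16*-/- without the library labelled distal replicate 2 and 3513 in WT. In 2213 both the call and the direction were shared, which was 81.7% of the *Mtg16*-/- and 63.0% of the WT calls. Across all these genes, which are not independent replicates, the log2 differences of the genotypes had a Pearson correlation of 0.928. Within request 4149 in both genotypes, 1307 calls were shared in direction, 74.6% of the *Mtg16*-/- and 65.6% of the WT calls, and 0 had opposite directions. *Megf11*, an adhesion receptor gene, and *S100g*, which encodes the vitamin D-dependent calcium carrier calbindin-D9k, were the 2 genes called in opposite directions in the fit with 3 distal *Mtg16*-/- libraries, and they were picked after their values were seen. *Megf11* had 21.5 and 24.5 proximally and 67.2, 54.4 and 44.9 distally in *Mtg16*-/- and 27.3 and 28.0 against 6.63, 1.18, 9.95 and 3.16 in WT. *S100g* had 769.8 and 824 proximally and 2109, 1629 and 1764 distally in *Mtg16*-/- and 1727 and 2327 against 508, 223, 1233 and 538 in WT, and the difference between the genotypes passed for neither gene (adjusted p = 0.502 for both, limma), although DESeq2 called *Megf11* in all 12 libraries (3.44, adjusted p = 0.0454) and without the library labelled distal replicate 2 (3.58, adjusted p = 0.00527).

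**Figure D4:**
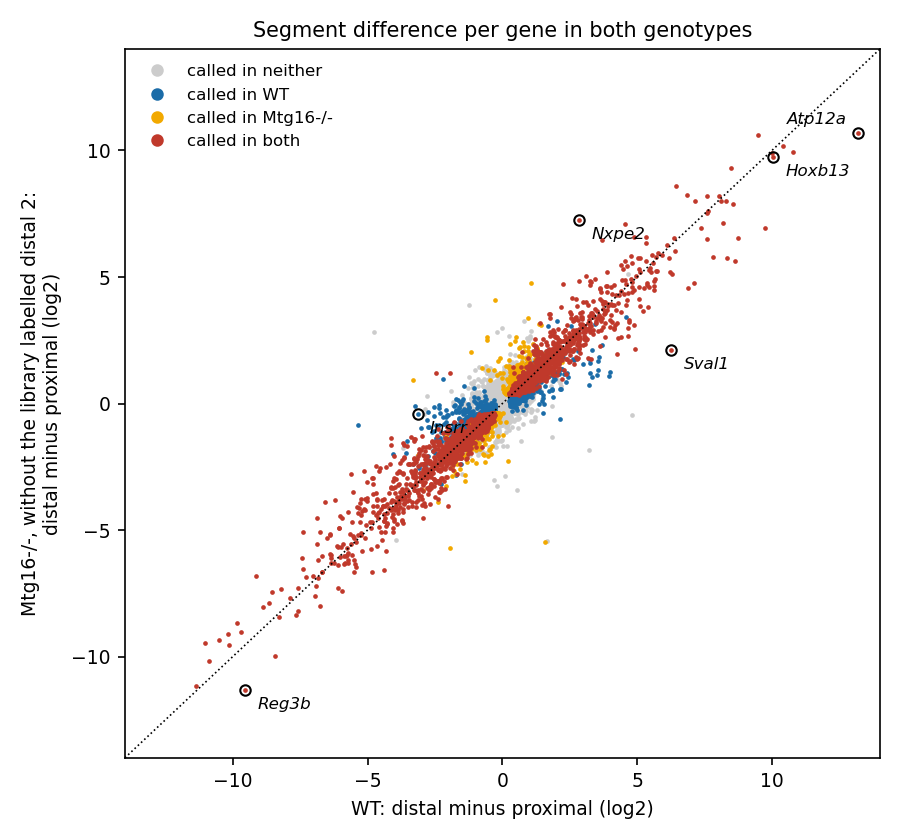
Log2 difference of distal over proximal colon in WT (x axis) and in *Mtg16*-/- without the library labelled distal replicate 2 (y axis), 1 point for each of 13727 genes, colored by the genotype in which it was called, with the line of equal differences dotted. *Sval1*, *Nxpe2* and *Insrr* stand off the line, and *Atp12a*, *Hoxb13* and *Reg3b* mark the ends of the cloud.

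The groups described above had these values in WT, with no test of the counts between the genotypes. *Hox* genes had 10 higher and 11 lower in WT, as in *Mtg16*-/-, and *Cdx2* had a log2 difference of -2.53 in WT and -2.97 in *Mtg16*-/-. Enteroendocrine transcription factors had 2 higher and 0 lower of 16 in WT against 9 and 0 in *Mtg16*-/-. *Neurog3* had 58.8 and 49.0 in WT proximal and 82.2, 109, 97.5 and 61.0 in WT distal libraries (0.67, adjusted p = 0.131, limma), and *Neurod1* had 197 and 160.1 against 118, 134, 129 and 132. The test of the difference between the genotypes called none of the 16, with log2 values of 0.46 to 1.39 and adjusted p of 0.115 to 1 (limma) over those named above, so the larger count in *Mtg16*-/- was not shown to differ from WT by limma, whereas DESeq2 called 1 of these genes, *Neurod1*, without the library labelled distal replicate 2 (1.40, adjusted p = 6.73e-06) and none of them in all 12 libraries. Goblet cell genes had 5 higher and 5 lower of 25 in WT. *Reg4* had a log2 difference of 0.24 in WT and 1.72 in *Mtg16*-/- and *Tff3* of 0.78 and -0.24, and the difference between genotypes had adjusted p of 0.502 and 0.344 (limma). In all 12 libraries DESeq2 called *Tff3* (-0.97, adjusted p = 0.0172) but not *Reg4*. *Scnn1b* had 653 and 717 in WT proximal and 303, 307, 426 and 649 in WT distal libraries, a log2 difference of -0.76, against 1.41 in *Mtg16*-/- (adjusted p of the difference 0.382, limma). Tuft cell genes had 7 lower of 16 in WT and 8 of 17 in *Mtg16*-/-, genes for foreign compounds had 10 higher and 27 lower of 43 in WT, and the identity factors had 2 higher and 8 lower of 25. In WT, electrolyte transport genes had 9 higher and 0 lower of 30, the carbonic anhydrase group 4 and 11 of 19, antimicrobial genes 5 and 9 of 25, bile acid and lipid genes 6 and 10 of 21, glycosylation enzymes 13 and 14 of 38, enteroendocrine hormone genes 6 and 9 of 20, and stem cell and Wnt target genes 5 and 8 of 23. Among markers of other cells, 7 of 10 T cell genes were lower in WT distal colon, against 1 of 6 plasma cell and 0 of 7 B cell genes, where *Mtg16*-/- had 4 of 6 and 4 of 5. Within request 4149, WT had 1004 higher and 1019 lower of 13950 genes. There, 0 of 16 enteroendocrine factors were higher, and 2 of 17 tuft cell and 4 of 10 T cell genes were lower. Antimicrobial genes had 4 higher and 6 lower of 25, *Hox* genes 9 and 11 of 26, and genes for foreign compounds 8 and 21 of 44.

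The segment difference was then tested against the genotype in 1 model of the 12 libraries. In all 12, 0 of 13975 genes (0%) passed, with 351 at an unadjusted p under 0.05 and a smallest adjusted p of 0.103 with limma, 0 with edgeR and 9 with DESeq2, among them *Sval1* (-4.43, adjusted p = 5.07e-11) and *Insrr* (3.02, adjusted p = 1.37e-07) but not *Nxpe2*. Without the library labelled distal replicate 2, 3 of 13978 (0.0215%) passed with limma, *Sval1*, *Nxpe2* and *Insrr*, while edgeR called these 3 with *Myrip* and *Cacna1h*, and DESeq2 called 33. *Sval1* (ENSMUSG00000029865.4, chromosome 6 from 41951630 to 41956098) encodes a secreted protein of the seminal vesicle antigen family. It had 4175 and 3001 rescaled counts in proximal and 13007, 15788 and 17629 in distal *Mtg16*-/- libraries, and 181 and 257 in proximal and 14715, 15482, 18399 and 18252 in distal WT libraries. The WT proximal libraries were the low ones, and the other groups did not reach down to them. The segment difference was 2.12 in *Mtg16*-/- and 6.27 in WT, and the difference of the differences was -4.15 (SE 0.27, adjusted p = 0.000117, limma), -4.58 (adjusted p = 0.103) in all 12 libraries and -4.17 (adjusted p = 0.0118) within request 4149.

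*Nxpe2* (ENSMUSG00000032028.15, chromosome 9 from 48318006 to 48353454), of the neurexophilin and PC-esterase domain family, had the reverse pattern. It had 47.3 and 80.3 in proximal and 11045, 7338 and 10691 in distal *Mtg16*-/- libraries and 1844 and 1175 against 10878, 10109, 9581 and 12057 in WT, so that the *Mtg16*-/- proximal libraries were the low ones. The library labelled distal replicate 2 had 287, nearer to the proximal than to the distal *Mtg16*-/- values. The difference of the differences was 4.40 (SE 0.35, adjusted p = 0.000549, limma), 3.14 (adjusted p = 1) in all 12 and 4.27 (adjusted p = 0.114) within request 4149. *Insrr* (ENSMUSG00000005640.11, chromosome 3 from 87796951 to 87816101), which encodes the insulin receptor-related receptor, a sensor of alkaline pH, had 1007 and 1283 in proximal and 967, 618 and 1014 in distal *Mtg16*-/- libraries and 472 and 463 against 58.3, 57.6, 37.8 and 55.8 in WT. It was low in WT distal colon alone, and the library labelled distal replicate 2 had 1517. The difference of the differences was 2.73 (SE 0.35, adjusted p = 0.0422, limma), 2.94 (adjusted p = 0.140, limma) in all 12 and 2.80 (adjusted p = 0.807) within request 4149. Without the males of both genotypes, *Sval1* and *Nxpe2* passed (adjusted p = 0.000581 and 0.00267, limma). *Insrr* did not pass there (adjusted p = 0.0905, limma), with a difference of 2.78 (SE 0.37).

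**Figure D5:**
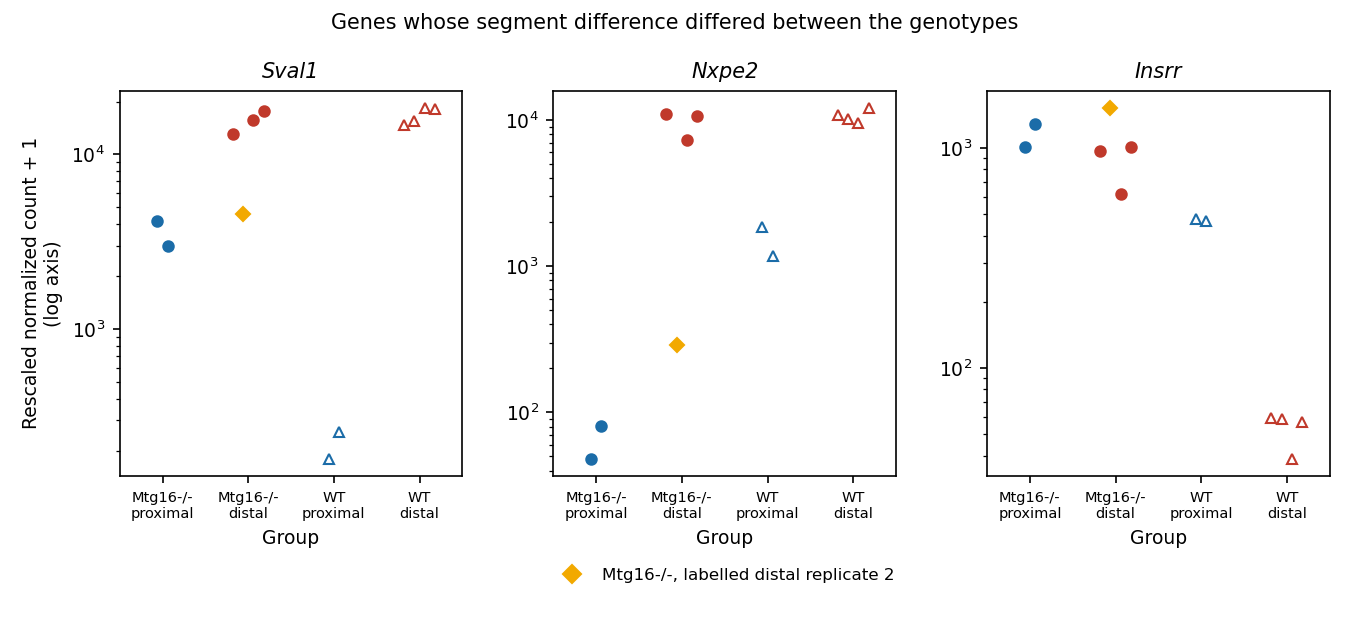
Rescaled normalized count plus 1 of *Sval1*, *Nxpe2* and *Insrr* on log axes in the 12 baseline libraries, by group as labelled (filled, *Mtg16*-/-; open, WT; blue, proximal; red, distal). *Sval1* is low in WT proximal colon alone, *Nxpe2* is lowest in *Mtg16*-/- proximal colon, *Insrr* is low in WT distal colon alone, and the library labelled *Mtg16*-/- distal replicate 2 (diamond) is at 4570.0, 287 and 1517.

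Because MTG16 acts on E proteins, the start regions of these genes are shown with their E boxes (CANNTG, which reads the same on both strands, so 1 strand was searched) in capitals. Each sequence is RefSeq's 300 bases around the gene start on GRCm38.p6, and *Insrr* had no entry.
Sval1 (chr6:41951378-41951677, plus strand): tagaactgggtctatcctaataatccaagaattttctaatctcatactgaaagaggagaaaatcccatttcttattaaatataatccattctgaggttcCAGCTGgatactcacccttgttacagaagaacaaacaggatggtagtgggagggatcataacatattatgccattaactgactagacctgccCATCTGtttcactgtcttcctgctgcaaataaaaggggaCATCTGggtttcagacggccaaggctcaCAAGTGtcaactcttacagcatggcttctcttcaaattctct
Nxpe2 (chr9:48340849-48341148, minus strand): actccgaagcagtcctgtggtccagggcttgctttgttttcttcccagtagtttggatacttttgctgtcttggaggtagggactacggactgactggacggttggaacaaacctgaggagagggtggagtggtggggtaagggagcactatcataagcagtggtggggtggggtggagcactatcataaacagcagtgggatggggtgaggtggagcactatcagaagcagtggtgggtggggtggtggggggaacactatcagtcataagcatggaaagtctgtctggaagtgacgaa
The *Sval1* stretch holds 4 E boxes and the *Nxpe2* stretch 0. Of 32817 mouse promoters of the same length, 72.3% hold at least 1 and 17.6% hold 3 or more (median 1). The *Sval1* start lies 2 bases from that of the GENCODE gene, whereas the *Nxpe2* start lies 12556 bases from it, so the latter stretch describes an internal start. These matches describe letters in a window and were not tested as binding sites.

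For the 2 further genes that edgeR called, the WT distal libraries were the low ones. *Myrip*, a linker of secretory granules to myosin, had 555 and 683 in proximal and 254, 136 and 229 in distal *Mtg16*-/- libraries and 481 and 558 against 27.8, 28.2, 32.5 and 26.3 in WT. *Cacna1h*, a T-type calcium channel gene, had 412 and 665 against 557, 433 and 464 in *Mtg16*-/- and 1172 and 761 against 192, 152, 149 and 148 in WT. The difference of the differences was 2.51 and 2.44, with adjusted p of 0.0630 and 0.0624 in limma and of 0.0459 for both in edgeR. In all 12 libraries DESeq2 called *Myrip* (3.28, adjusted p = 0.0172) and *Cacna1h* (2.53, adjusted p = 2.3e-08). Of the groups described above, DESeq2 without the library labelled distal replicate 2 also called *Neurod1* (1.40, adjusted p = 6.73e-06), *Sct* (1.48, adjusted p = 0.00325), *Reg4* (1.55, adjusted p = 0.00327), *Tff3* (-1.01, adjusted p = 0.00325), *Scnn1b* (2.06, adjusted p = 0.00527) and *Atp12a* (-2.22, adjusted p = 0.0345), which limma and edgeR did not call. With no library left out, DESeq2 called *Tff3* alone of these (-0.97, adjusted p = 0.0172).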

How the data were processed

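Crypt RNA of untreated *Mtg16*-/- and WT colon was read as poly(A) RNA-seq. The authors trimmed reads with fastp 0.20.0, quantified them with Salmon 1.3.0 against GENCODE on GRCm38, summed them per gene, and divided estimated counts by DESeq2 1.26.0 size factors within each table. The deposited values are therefore normalized counts, a signal whose scale is set per table, and genes with at most 1 count in a table were left out. The authors' fold-change and p-value columns were not used, and strandedness was not given in the sources used here.

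Values of 100% of the genes were whole multiples of 1 read per library (tolerance 0.01 read), so depths and whole reads were recovered. Libraries of the proximal and distal tables were rescaled together by TMM (edgeR 4.0.16), genes in both tables with a mean of at least 10 were kept, and log2 (value + 1) was tested with limma 3.58.1 (trend, R 4.3.3). edgeR's quasi-likelihood test and DESeq2 1.42.0 on whole reads were alternatives, with another pseudocount (0.1), filter, scaling, request or sex term, a replicate block and each library left out. Replicate numbers occurred in both segments as 2 pairs, which no label ties to a mouse, so they were not taken as pairs. Their deviations from the segment means correlated by -0.059 and 0.010. The distal mean included the library labelled distal replicate 2, so these values cannot show whether a pair shared a mouse. Scripts were tested on simulated data. Genes were named as members of gene lists and as the largest non-overlapping changes per direction, and a few of them are not reported here. The comparison, gene lists and tests were chosen with earlier results of these data known.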

Additional observations from a re-analysis of the deposited data

Results flagged for a closer look

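In the 4 labelled distal *Mtg16*-/- libraries, and in the 4 WT ones, the highest or lowest library was set against the others by Dixon's test, which chance passes in about 1 of 20 groups. Of 159 groups tested, 60 passed, and in 59 of them the library apart was the one labelled *Mtg16*-/- distal replicate 2. Many of these genes were named because the other 3 distal libraries stood apart from the proximal ones in the fit without this library, so its standing apart was in large part fixed by the choice of genes, and the rate of 1 in 20 does not apply to them. The Y-linked *Eif2s3y* (2067) and *Ddx3y* (1744) were read in it and in none of the 3 other distal *Mtg16*-/- libraries. Its rescaled counts for the other genes were as follows, each far from the 3 remaining distal libraries. *Hox* and other transcription factor genes had 4648 for *Osr2*, 115 for *Hoxb2*, 1269 for *Hoxb3*, 615 for *Hoxb4*, 802 for *Hoxb5*, 2916 for *Hoxb6*, 1069 for *Hoxb7*, 2107 for *Hoxb8*, 3562 for *Hoxb9*, 314 for *Hoxd4*, 107 for *Hoxd8*, 21159.6 for *Cdx2*, 1968 for *Tbx3*, 8511 for *Isx*, 8555 for *Nr1h4*, 31.8 for *Gata4*, 5665 for *Pparg*, 272 for *Neurod1* and 114 for *Rfx6*. Genes of bile acids, lipids, foreign compounds and retinoids had 4617 for *Slc51a*, 7037 for *Slc10a2*, 15935 for *Fabp2*, 96282 for *Cyp2c55*, 15712 for *Cyp2c65*, 18715 for *Aldh1a1*, 7337 for *Ces1g*, 9858 for *Abca12* and 3009.6 for *Ugt2b5*. Antimicrobial, mucin and glycosylation genes had 158934 for *Reg3b*, 49209.7 for *Reg3g*, 642 for *Saa3*, 28785 for *Retnlb*, 11195 for *B4galnt1*, 2378 for *St3gal1*, 33525 for *B4galnt2*, 5122 for *Muc3a*, 473 for *Muc16*, 458 for *Itln1*, 5214 for *Noxa1*, 41987 for *Papss2* and 806239 for *Dmbt1*. Hormone genes had 549 for *Insl5*, 2359.7 for *Nts*, 629 for *Sst*, 202 for *Cck* and 1289 for *Sct*. Carbonic anhydrase, guanylin and other genes had 438133 for *Car1*, 7279 for *Car12*, 30932 for *Guca2a*, 3775 for *Cd44*, 133 for *Tnfrsf19*, 8854 for *Cldn15*, 784 for *Lck*, 3233 for *Pcsk5*, 15950.1 for *Mal*, 271 for *ccdc198* and 5236 for *Car8*. In the remaining group, WT distal replicate 3 had the lowest *Insrr* value, 37.8, of the 4 WT distal libraries.

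The segment difference itself differed between the genotypes for 3 genes, without the library labelled *Mtg16*-/- distal replicate 2 (limma). The log2 values were 4.40 for *Nxpe2*, 2.73 for *Insrr* and -4.15 for *Sval1*, the sign being that of *Mtg16*-/- minus WT.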

How the results depend on the processing

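The segment comparison in *Mtg16*-/- turned on 1 library. In all 6 libraries 0 genes passed with limma, 1 with a replicate block, 2 with no filter on low values, 0 with request as a covariate and 527 with DESeq2 on whole reads. Leaving out 1 library gave 0 to 2773, the highest without the library labelled distal replicate 2 and 0 without any of the other 5. Without that library the counts were 2760 with edgeR, 3440 with DESeq2, 2799 with genes of either table, 2777 with median-of-ratios scaling, 2857 with no filter, 2897 with no rescaling and 2682 with a pseudocount of 0.1. Sex as a covariate gave 2807, but the only male library was the one labelled distal replicate 2, so that term amounts to leaving it out. Request 4149 alone, which also leaves out distal replicate 1, gave 1781, and leaving out a further distal library gave 1781 to 3279. A sex term fitted where both segments hold both sexes was planned and not run, because the proximal libraries were all from females. In WT, request 4149 alone gave 2023 genes, and leaving out 1 library gave 2068 (proximal replicate 2) to 3734 (distal replicate 3), with 2168 without proximal replicate 1. The test of segment by genotype passed 0 genes in all 12 libraries and 0 to 3 with 1 library left out, the 3 without the library labelled *Mtg16*-/- distal replicate 2. DESeq2 passed 9, and 33 without that library, where edgeR passed 5. Females alone gave 2 with limma and 2 with edgeR, and request 4149 alone 1 with each. A sex covariate gave 2, which amounts to the fit of females alone, because the only male library of each genotype takes its own term. Fits that join the removal of that library with another setting, the fits of females alone and the sex covariate were added after the data were seen. Where 1 proximal library remained, it was assumed to vary like the distal ones. The cause of these differences between tools and settings was not tested. For *Cbfa2t3* the log2 difference was 0.16 with the replicate block and -0.79 to 0.20 with libraries left out, above 0 without distal replicate 3 (0.06) and without proximal replicate 2 (0.20), and no setting called it. The block is a fit by shared numbers only, and no block was fitted without the library labelled distal replicate 2, which leaves 1 number in both segments. Within request 4149 proximal replicate 1 and distal replicate 3 had the higher correlation of deviations (0.424). Of 4403 alternative values, 0 called ones changed sign against the value in all libraries and 76 uncalled ones did.

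The 12 libraries held 35346459 reads or more each, and how much of the spread between libraries was counting error was not tested. The number of libraries, 2 proximal and 3 or 4 distal, limits precision.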
